A study of Mus musculus with 6 samples.

Results

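The aminoacyl-tRNA synthetases are the enzymes that join each amino acid to its tRNA, and they were followed here in a mouse cardiosphere-derived cell line before and after induction with 5-azacytidine. Members were taken by gene symbol. They were the protein-coding genes whose names are an amino acid letter followed by ars, with or without a final digit, together with Farsa, Farsb and Eprs. The rule found 37 of the 54532 genes in the table, of which 20 encode enzymes of the cytosol and 17 encode enzymes of the mitochondrion. The rule uses symbols and the gene type alone. All 37 members passed the filter on low counts.

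RNA was sequenced from 6 libraries in 2 groups of 3. All 6 came from cells of C57BL/6 mouse heart ventricle at passage 30, grown out of the epicardium and immortalized by a lentivirus that carries hTERT, the catalytic subunit of telomerase, with puromycin selection. The control cells received no drug according to the sample titles and descriptions. The induced cells received 5-azacytidine, a cytidine analog that inhibits DNA methylation, at 10 µM for 3 days, and the labels then give 4 weeks in IMDM with 2% fetal bovine serum. The study's methods give another medium and a shorter time for that culture. Drug, serum and time in culture cannot be told apart in this comparison. Each group is a single immortalized line, and where nothing ties the 3 samples of a group to separate cultures, p-values measure the spread between these samples, which may be technical.

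Synthetases fall into 2 structural classes, and translation needs a set of them in the cytosol and another in the mitochondrion. The cytosolic and mitochondrial enzymes are mostly encoded by separate nuclear genes, with a final 2 in the symbol of the mitochondrial enzyme. Gars and Kars serve both compartments from a single gene each and are counted here with the cytosolic enzymes. Eprs charges both glutamate and proline in the cytosol, and mitochondrial glutamine tRNA is made by an indirect route without an enzyme of its own. In the cytosol several synthetases are held together with the scaffold proteins Aimp1, Aimp2 and Eef1e1 in the multisynthetase complex. Many cytosolic synthetase genes are known targets of ATF4, the transcription factor of the amino acid and endoplasmic reticulum stress responses, which binds sites read as TGATGNAA.

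Promoters were inspected for those letters since many of these genes are known ATF4 targets. RefSeq promoter windows (GRCm38.p6) reach from 250 bases before the start site to 50 bases after it, and 27 of the 37 members had one. Cars, Hars, Hars2, Lars, Nars, Pars2, Rars, Vars and Wars were among those not matched. TGATGNAA, with N any base, was searched on both strands, and on the opposite strand it reads TTNCATCA. It was present in 5 of the 27 members (18.5%) and in 4.51% of the 27025 genes with a window. All 5 were cytosolic (Aars, Gars, Iars, Tars and Yars), out of 13 cytosolic members with a window, against 0 of 14 mitochondrial members. A match in each of the 5 is printed 5′ to 3′ on the gene's strand with the 8 letters in capitals, and positions count the start site as 1.
Aars match (chr8:111033840-111033869, plus strand, first base at 10): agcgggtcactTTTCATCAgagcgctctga
Gars match (chr6:55037960-55037989, plus strand, first base at -30): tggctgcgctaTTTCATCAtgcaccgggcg
Iars match (chr13:49682126-49682155, plus strand, first base at 8): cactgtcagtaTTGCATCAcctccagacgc
Tars match (chr15:11399655-11399684, minus strand, first base at -15): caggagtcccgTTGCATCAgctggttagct
Yars match (chr4:129189895-129189924, plus strand, first base at 4): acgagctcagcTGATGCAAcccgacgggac
Aars rose, Iars and Tars fell, and Gars and Yars did not pass the test, so genes with these letters were found in each outcome. A match is a description of the letters, and binding was not measured.

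The 250 bases before the start site are shown for Kars, the member with the largest fall, whose window held no match and so has no capitals.
Kars upstream (chr8:112011355-112011604, minus strand): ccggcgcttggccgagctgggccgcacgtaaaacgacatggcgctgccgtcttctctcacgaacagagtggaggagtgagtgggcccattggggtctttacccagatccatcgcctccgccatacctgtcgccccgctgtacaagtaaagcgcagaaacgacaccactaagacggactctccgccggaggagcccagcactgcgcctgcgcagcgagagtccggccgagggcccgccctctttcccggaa
The Aars window of 300 bases held 10 CpG dinucleotides and the Kars window held 27. The other members that rose held 14 (Sars) and 18 (Lars2), and those that fell ran from 7 (Tars2) to 30 (Rars2). A relation of CpG content to the direction of change was not tested. CpG content is given because the drug acts on cytosine methylation. Member windows held 7 to 36 CpG, with a median of 17.5 against 7 over all 32851 windows, and the observed to expected CpG ratio had a median of 0.736 against 0.384. Methylation was not measured in these samples.

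Induction was followed by modest changes in both directions. Levels are given in CPM, counts scaled to a common library total after TMM adjustment, means are given ± SD with n = 3 per group, and calls are adjusted p under 0.05 in edgeR's quasi-likelihood test over 14246 genes. Of the 37 members, 3 rose, 19 fell and 15 did not pass. Aars, Sars and Lars2 rose. The median log2 fold change was -0.21 over the members and -0.01 over all genes tested. Over all genes tested, 64.8% passed, 32.6% higher and 32.2% lower. In the members 8.11% were higher and 51.4% lower. The 3 control and 3 induced values did not overlap in 25 of 37 members, against 68.6% of all genes. No member reached a 2-fold change, a size that 26.4% of all called genes reached, and the median absolute log2 fold change of the 22 called members was 0.42 against 0.56 for all called genes.

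Total counts were 19041133 to 19823369 per library, and the members took 0.358% to 0.359% of the reads in the control libraries and 0.324% to 0.329% in the induced libraries. Library pairs of the same group differed by more than sampling noise, with a chi-square of 2.56 to 8.91 per degree of freedom, and each entered as its own replicate. The markers of cardiosphere-derived cells listed for this work, Eng, Thy1, Ly6a, Tbx18, Upk3b, Gata4 and Col3a1, were all expressed, with a summed level of 4241 to 4568 CPM in control and 7320 to 7456 CPM in induced libraries. Most of that sum was Col3a1 (3413 ± 168 CPM to 5553 ± 119.7 CPM). Of the 7 markers 5 rose, while Tbx18 (log2 fold change -0.33, adjusted p = 4.29e-04) and Ly6a (log2 fold change -0.57, adjusted p = 2.89e-05) fell. The summed level of 7 cardiomyocyte markers was 12.8 to 16.1 CPM and 60.0 to 63.8 CPM, most of it from Tnnt2 (13.1 ± 1.62 CPM to 58.2 ± 1.92 CPM). Myl7 also rose, from 0 reads in the control libraries to 1.30 ± 0.437 CPM, and Tnni3 did not pass (adjusted p = 0.144). Myh6, Actn2, Nppa and Ryr2 were too low to be tested. Of 8 leukocyte markers Ptprc, Cd52, Tyrobp and Itgam were at 0 in all libraries, and the sum of the list was 27.3 to 30.1 CPM and 54.1 to 61.8 CPM. Csf1r, most of the control sum, fell from 22.6 ± 1.05 CPM to 10.9 ± 0.673 CPM, while Cd68 (1.95 ± 0.217 CPM to 29.2 ± 2.77 CPM) and Lyz2 (3.76 ± 0.637 CPM to 14.6 ± 1.25 CPM) rose. Fcer1g also rose, to 3.29 ± 0.209 CPM. It had 2 reads in control replicate 1 and 0 in the other control libraries, too few for a control level. The 5 endothelial markers summed to 1.57 to 1.89 CPM and 1.21 to 2.31 CPM. All 10 mitosis genes fell, with a median log2 fold change of -2.01, and they summed to 829 to 863 CPM in control and 215 to 226 CPM in induced libraries. Their part in the synthetase results was not tested, and in bulk RNA fewer cells of a type and less RNA per cell cannot be told apart.

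**Figure D1:**
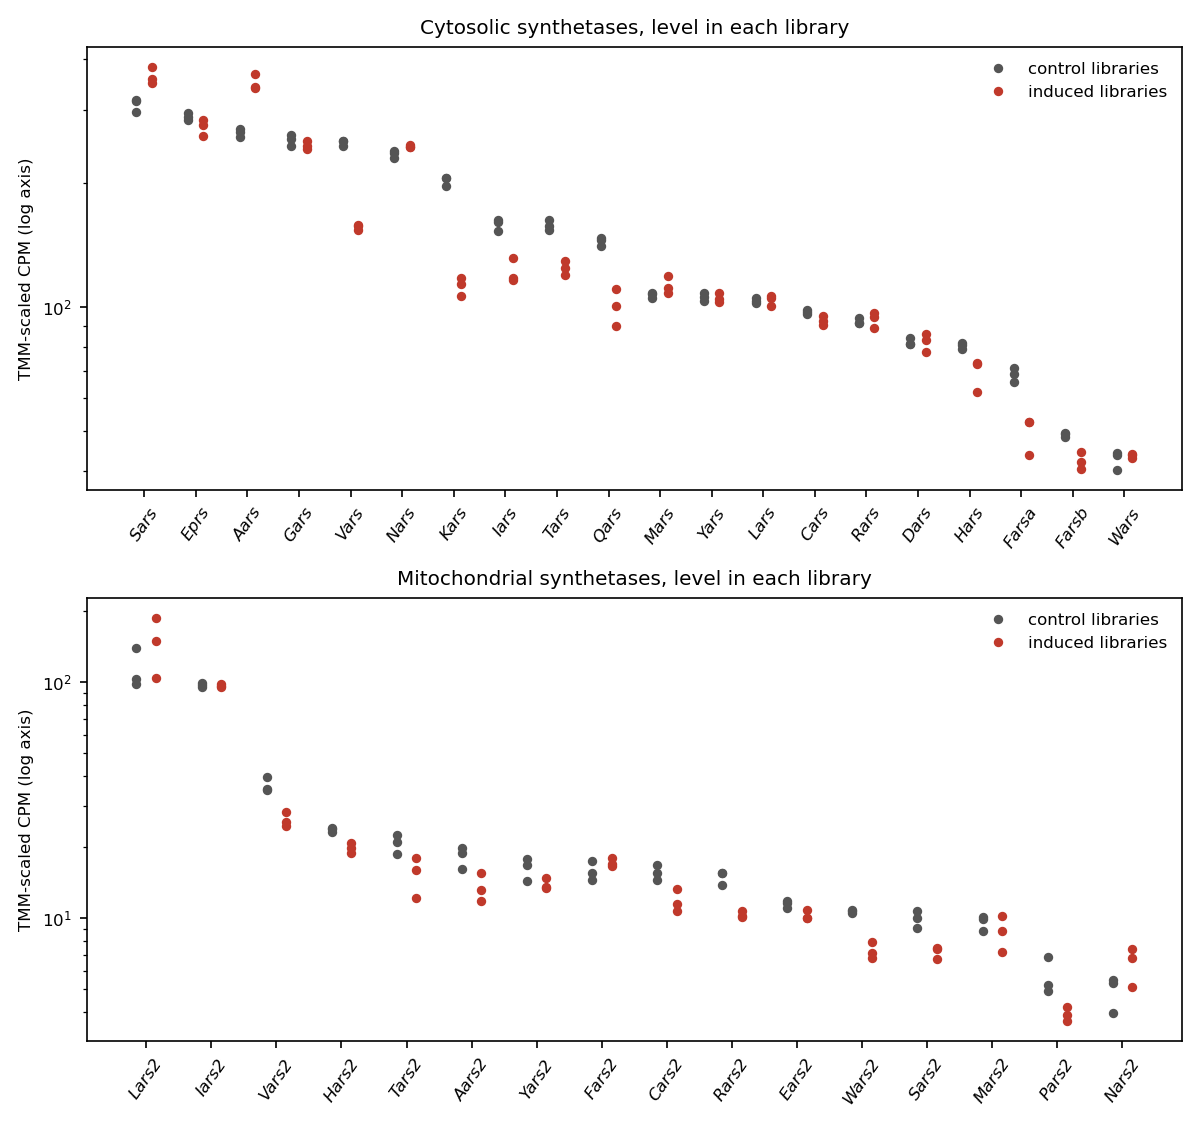
Level of 36 synthetases in every library, as TMM-scaled CPM on a log axis, with cytosolic enzymes above and mitochondrial enzymes below and 1 point per library. Kars, Vars and Qars sit lower in all 3 induced libraries, Aars and Sars sit higher, and the 6 Lars2 points spread from 98.7 to 187 CPM.

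Among the 20 cytosolic enzymes 2 rose, 8 fell and 10 did not pass the test, with a median log2 fold change of -0.06. Kars (ENSMUSG00000031948, chr8:111993443-112011323, minus strand) encodes the lysyl-tRNA synthetase, a subunit of the multisynthetase complex. Its level was 205, 205 and 197 CPM in the control libraries and 114, 107 and 117 CPM in the induced libraries. The groups were far apart relative to their spread, and Kars fell by 44.5% (log2 fold change -0.85, SE 0.051, adjusted p = 5.63e-11), the largest change of any member. Vars (ENSMUSG00000007029, chr17:35000987-35016322, plus strand), the valyl-tRNA synthetase, was at 245, 252 and 253 CPM in the control libraries and 158, 154 and 157 CPM in the induced libraries. All 3 induced values lay below every control value, and Vars fell by 37.6% (log2 fold change -0.68, SE 0.046, adjusted p = 2.70e-10).

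Qars and Farsa followed. Qars (ENSMUSG00000032604, chr9:108507706-108515941, plus strand), the glutaminyl-tRNA synthetase and also a complex member, measured 140.5, 145 and 147 CPM in the control libraries and 100.3, 89.7 and 111 CPM in the induced libraries. The induced libraries spread more than the control libraries but stayed below all of them (log2 fold change -0.52, SE 0.064, adjusted p = 9.12e-07). Cytosolic phenylalanyl-tRNA synthetase is built of an alpha subunit, Farsa, and a beta subunit, Farsb. For Farsa (ENSMUSG00000003808, chr8:84856989-84869257, plus strand) the level was 65.6, 71.0 and 68.8 CPM in the control libraries and 52.5, 43.8 and 52.6 CPM in the induced libraries. Induced replicate 2 was the lowest, and the groups did not overlap (log2 fold change -0.46, SE 0.067, adjusted p = 6.98e-06). For Farsb (ENSMUSG00000026245, chr1:78417975-78488897, minus strand) it was 49.4, 49.0 and 48.3 CPM in the control libraries and 40.4, 41.9 and 44.3 CPM in the induced libraries. Both subunits fell, Farsb by 13.6% and Farsa by 27.5%.

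Tars (ENSMUSG00000022241, chr15:11382301-11399665, minus strand), the threonyl-tRNA synthetase, was at 163, 157 and 154 CPM in the control libraries and 124, 129 and 119 CPM in the induced libraries, again without overlap (log2 fold change -0.35, SE 0.050, adjusted p = 8.24e-06). Iars (ENSMUSG00000037851, chr13:49682100-49734267, plus strand), the isoleucyl-tRNA synthetase of the complex, fell from 159 ± 5.32 CPM to 121 ± 8.59 CPM (log2 fold change -0.38, SE 0.056, adjusted p = 8.30e-06). Hars, the histidyl-tRNA synthetase, lies on chromosome 18 head to head with its mitochondrial counterpart Hars2, and the exons of the pair share 195 bases on opposite strands. Hars was measured at 81.7, 78.8 and 80.9 CPM in the control libraries and 73.0, 62.3 and 72.6 CPM in the induced libraries. Hars2 was measured at 23.2, 24.1 and 23.8 CPM in the control libraries and 18.9, 19.8 and 20.9 CPM in the induced libraries. Both genes were lower in every induced library than in any control library, Hars with a log2 fold change of -0.22 (adjusted p = 0.00508) and Hars2 with -0.26 (adjusted p = 0.00681). Whether reads were counted by strand is not stated, so the reads of the shared stretch cannot be assigned.

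Aars and Sars went the other way. Aars (ENSMUSG00000031960, chr8:111033144-111057664, plus strand), the alanyl-tRNA synthetase, was at 270.1, 259 and 266 CPM in the control libraries and 368, 339 and 341 CPM in the induced libraries. Every induced library exceeded every control library, and Aars rose by 32.0% (log2 fold change 0.40, SE 0.047, adjusted p = 6.44e-07). Of its annotated exon bases 14.3% are shared with Exosc6 on the same strand, a gene with 0 reads in all 6 libraries. How reads of the shared stretch were counted is not stated. They may have been lost to both genes, so the 0 need not mean that Exosc6 is silent. Sars (ENSMUSG00000068739, chr3:108424865-108445209, minus strand), the seryl-tRNA synthetase, was at 297, 315 and 317 CPM in the control libraries and 382, 349.5 and 358 CPM in the induced libraries, without overlap, and rose by 17.1% (log2 fold change 0.23, SE 0.048, adjusted p = 4.58e-04). Both enzymes belong to class II. Of the 10 cytosolic class II genes (with Farsa and Farsb counted apart and Eprs, which joins both classes, left out), 2 rose and 5 fell, with a median of -0.13. Of the 9 class I genes none rose and 3 fell (Vars, Qars and Iars), with a median of -0.01. The shares that fell were 50% of class II and 33.3% of class I, against 32.2% of all genes tested. The shares that rose were 20% and 0%, against 32.6%.

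The other 10 cytosolic genes were Eprs, Mars, Nars, Cars, Gars, Wars, Rars, Yars, Lars and Dars, with log2 fold changes from -0.08 for Eprs to 0.08 for Mars. Their intervals were narrow. Eprs passed without induced replicate 2 (log2 fold change -0.11, adjusted p = 0.0237) and with library totals alone (-0.12, adjusted p = 0.0357). Its adjusted p ranged from 0.0237 to 0.403 over all alternatives. The 95% interval for Gars, the glycyl-tRNA synthetase, was -0.14 to 0.05 (adjusted p = 0.418), and its level was 262, 256 and 246 CPM in the control libraries and 246, 253 and 242 CPM in the induced libraries. Gars and Kars, the genes that serve both compartments, had log2 fold changes of -0.04 and -0.85. Wars, the tryptophanyl-tRNA synthetase, is known to be induced by interferon gamma. Its level was 43.7, 40.2 and 44.1 CPM in the control libraries and 43.9, 43.0 and 43.8 CPM in the induced libraries, and the groups overlapped (95% interval -0.09 to 0.15, adjusted p = 0.66). The induced libraries had higher levels of interferon response genes, where 11 of 12 rose and 1, Irf1, fell, with a median log2 fold change of 3.71. Dars, the aspartyl-tRNA synthetase, had the value nearest to 0 (81.3, 81.3 and 84.3 CPM in the control libraries and 77.7, 86.2 and 82.9 CPM in the induced libraries).

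The multisynthetase complex was described by its scaffolds and its enzymes. All 3 scaffold genes fell. Aimp1 went from 79.2 ± 4.72 CPM to 52.0 ± 4.74 CPM (log2 fold change -0.61, adjusted p = 2.23e-07), Aimp2 from 24.4 ± 1.85 CPM to 17.6 ± 1.66 CPM (log2 fold change -0.47, adjusted p = 1.46e-04) and Eef1e1 from 25.6 ± 1.21 CPM to 22.0 ± 1.54 CPM (log2 fold change -0.22, adjusted p = 0.0204). Of the 8 enzymes of the complex 3 fell, Kars, Qars and Iars, and the other 5 (Dars, Eprs, Lars, Mars and Rars) did not pass, with a median of -0.04 over the 8. Of the 12 cytosolic genes outside the complex 2 rose and 5 fell, with a median of -0.06. The shares that fell were 37.5% of the complex enzymes and 41.7% of the others, against 32.2% of all genes tested. The shares that rose were 0% and 16.7%, against 32.6%.

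**Figure D2:**
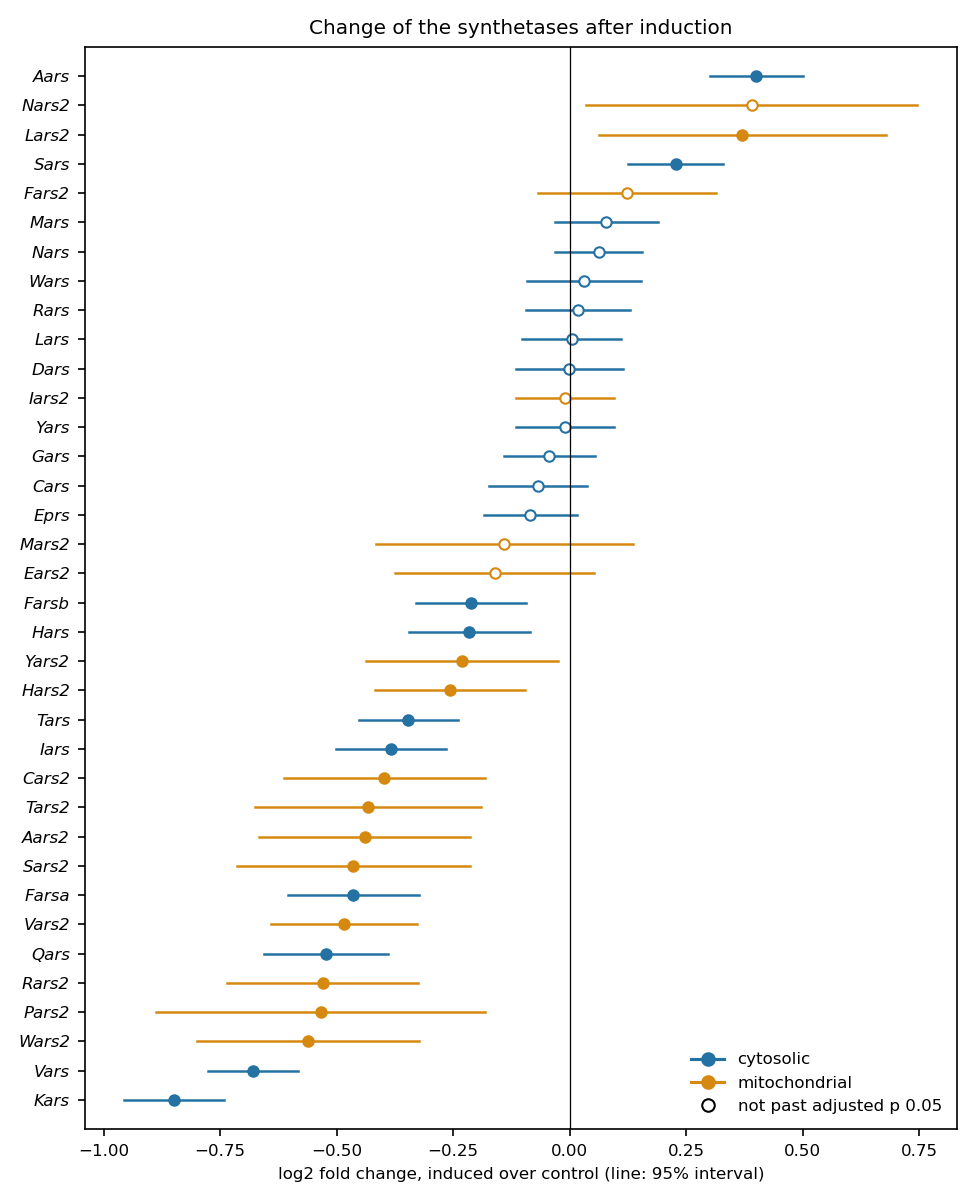
Log2 fold change of 36 synthetases, induced over control, with its 95% interval, for cytosolic and mitochondrial enzymes. Filled points passed an adjusted p of 0.05. They run from Kars at -0.85 to Aars at 0.40, and most mitochondrial intervals are wider than the cytosolic ones.

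Among the 17 mitochondrial enzymes 1 rose, 11 fell and 5 did not pass, with a median log2 fold change of -0.39. The number that rose was 0 without control replicate 1 or without control replicate 2 and 2 without control replicate 3. The share that fell was 64.7%, against 40% of the cytosolic genes and 32.2% of all genes tested. The difference between the compartments was not tested. In every induced library the median mitochondrial gene lay below its control mean (log2 -0.26, -0.44 and -0.32), while the cytosolic medians were -0.07, -0.04 and -0.07. The mitochondrial genes were sequenced more thinly, with 78 to 2781 reads per control library against 788 to 6337 for the cytosolic genes, and their standard errors ran from 0.050 to 0.17 against 0.045 to 0.067.

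Vars2 (ENSMUSG00000038838, chr17:35655634-35667592, minus strand), the mitochondrial valyl-tRNA synthetase, had the smallest p of this group. It was at 35.1, 35.3 and 39.6 CPM in the control libraries and 28.3, 25.6 and 24.7 CPM in the induced libraries, and its 3 induced values were all lower (log2 fold change -0.48, SE 0.074, adjusted p = 1.49e-05). Rars2 (ENSMUSG00000028292, chr4:34614957-34660167, plus strand), which charges arginine, was at 13.9, 15.5 and 15.6 CPM in the control libraries and 10.2, 10.8 and 10.2 CPM in the induced libraries. The induced libraries lay within 1 CPM of each other and below all controls (log2 fold change -0.53, SE 0.097, adjusted p = 1.09e-04). Wars2 (ENSMUSG00000004233, chr3:99141068-99239186, plus strand), the tryptophan enzyme, was at 10.8, 10.9 and 10.6 CPM in the control libraries and 7.12, 7.94 and 6.76 CPM in the induced libraries and fell by 32.2% (log2 fold change -0.56, SE 0.11, adjusted p = 2.87e-04), while its cytosolic counterpart Wars did not pass.

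Aars2 (ENSMUSG00000023938, chr17:45506841-45520843, plus strand), the alanine enzyme, was at 16.2, 18.9 and 19.9 CPM in the control libraries and 15.5, 13.2 and 11.8 CPM in the induced libraries. Its lowest control library was only just above its highest induced library (log2 fold change -0.44, SE 0.11, adjusted p = 0.00157). Sars2 (ENSMUSG00000070699, chr7:28741992-28753871, plus strand), the serine enzyme, was at 10.0, 10.8 and 9.12 CPM in the control libraries and 7.49, 6.73 and 7.44 CPM in the induced libraries, without overlap (log2 fold change -0.46, SE 0.12, adjusted p = 0.0022). For alanine and serine the mitochondrial gene fell where the cytosolic gene rose.

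Other mitochondrial genes that fell were Cars2, Tars2, Pars2 and Yars2, with log2 fold changes of -0.40, -0.43, -0.53 and -0.23, besides Hars2. Pars2, the prolyl-tRNA synthetase and 1 of the least abundant members, went from 5.68 ± 1.04 CPM to 3.92 ± 0.264 CPM (adjusted p = 0.00949), and without control replicate 3, its highest library, the call was lost (adjusted p = 0.0838, in a range of 0.00438 to 0.0838 over all alternatives). Yars2, the tyrosine enzyme, was close to the threshold (adjusted p = 0.0472) and lost its call in 9 of the 14 alternative analyses, with adjusted p from 0.0154 to 0.205. These included leaving out control replicate 1, control replicate 2, induced replicate 1 or induced replicate 3. Cars2 shares 5.83% of its exon bases with Naxd on the opposite strand, a gene that rose.

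Lars2 (ENSMUSG00000035202, chr9:123366927-123462666, plus strand), the mitochondrial leucyl-tRNA synthetase, was the single mitochondrial gene that rose and the member with the widest spread. Its level was 104, 98.7 and 139 CPM in the control libraries and 104, 150.3 and 187 CPM in the induced libraries. The groups overlapped, since induced replicate 1 lay at the level of the lower controls, and the coefficient of variation was 19.5% and 28.3%. The call (log2 fold change 0.37, SE 0.15, adjusted p = 0.0339) was lost in 7 of the 14 alternative analyses, among them those without control replicate 1 (adjusted p = 0.118), control replicate 2 (adjusted p = 0.168) or induced replicate 3 (adjusted p = 0.268), and with DESeq2 (adjusted p = 0.296). Over all alternatives the adjusted p ran from 9.98e-11 with no filter on low counts to 0.296, and the log2 fold change from 0.17 to 0.57.

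Nars2, Ears2, Fars2, Mars2 and Iars2 did not pass. Nars2, the asparagine enzyme, was at 5.32, 3.97 and 5.46 CPM in the control libraries and 7.44, 6.79 and 5.14 CPM in the induced libraries, and its interval of 0.03 to 0.75 did not include 0 although the adjusted p was 0.0512. It was among the lowest members, and the groups overlapped. Without control replicate 3 Nars2 passed (adjusted p = 0.0380), and also without induced replicate 3 (adjusted p = 0.0104), in a range of 0.0104 to 0.228 over all alternatives. It passed as well with no filter on low counts (adjusted p = 0.0251), with median-ratio factors (0.0459) and with the replicate number as a block (0.0468). Iars2, the isoleucine enzyme, had a narrow interval (95% interval -0.12 to 0.10) at a level of 97.6, 95.6 and 99.2 CPM in the control libraries and 96.4, 98.7 and 95.2 CPM in the induced libraries. Of its exon bases 22.9% are shared with Rab3gap2 on the opposite strand, which fell from 187 to 119.6 CPM. Fars2, the phenylalanine enzyme (95% interval -0.07 to 0.31), shares 8.72% with Nrn1 on the opposite strand, which fell from 81.0 to 16.6 CPM. Ears2 (95% interval -0.37 to 0.05) and Mars2 (95% interval -0.42 to 0.14), for glutamate and methionine, were less precisely measured.

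Setting the cytosolic and mitochondrial enzyme of the same amino acid side by side gives a ratio within each library. Ratios are log2 of CPM per kilobase of deposited gene length, and 17 amino acids have a pair. For phenylalanine the cytosolic level was the mean of Farsa and Farsb per kilobase. The ratio moved toward the cytosolic enzyme without overlap of the groups for 7 amino acids and toward the mitochondrial enzyme for 3. Lack of overlap was common here, with 68.6% of all single genes tested, and no share was computed for ratios of other gene pairs. In each of the 10 pairs without overlap the exact permutation test gave p = 0.1 (two-sided, adjusted p = 0.17 over the 17 pairs). This is the smallest p that 3 against 3 libraries allow, so no pair could reach 0.05. Eprs enters the glutamate and the proline pair.

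Alanine showed the widest shift. The log2 ratio of Aars to Aars2 was 3.10, 2.81 and 2.78 in the control libraries and 3.61, 3.72 and 3.89 in the induced libraries, a difference of 0.84. For serine the ratio of Sars to Sars2 was 4.25, 4.24 and 4.49 in the control libraries and 5.04, 5.06 and 4.95 in the induced libraries, a difference of 0.69. In both pairs the cytosolic gene rose and the mitochondrial gene fell. For tryptophan (0.60), arginine (0.55), proline (0.44) and cysteine (0.33) the cytosolic gene did not pass and the mitochondrial gene fell.

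The shift was in the other direction for phenylalanine (-0.45), isoleucine (-0.38) and valine (-0.20). For phenylalanine and isoleucine the cytosolic genes fell and the mitochondrial gene did not pass, and for valine Vars and Vars2 both fell. Histidine (0.04, exact p = 0.8) and threonine (0.10, exact p = 0.7), in which both enzymes fell, moved least relative to their spread. Leucine (-0.34), asparagine (-0.33), tyrosine (0.22), methionine (0.23) and glutamate (0.08) overlapped between groups.

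**Figure D3:**
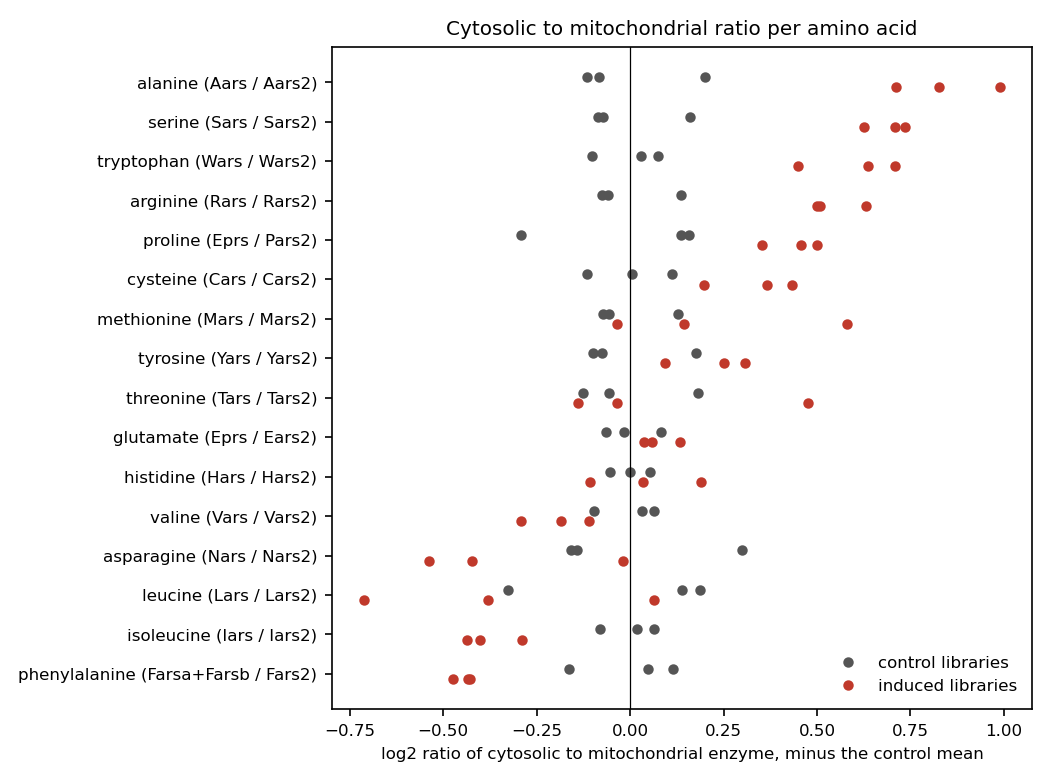
Log2 ratio of the cytosolic to the mitochondrial enzyme for 16 amino acids, with the control mean subtracted, 1 point per library. The alanine, serine and tryptophan points of the induced libraries lie to the right of all control points (mean differences 0.84, 0.69 and 0.60), and those of phenylalanine and isoleucine lie to the left (-0.45 and -0.38).

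Levels between genes are compared per kilobase of the deposited gene length. In control cells Nars was highest at 89.3 ± 1.70 CPM per kilobase, followed by Gars at 81.6 ± 2.64 and Sars at 60.3 ± 2.17, each above the next in all libraries. Kars (45.4 ± 1.08) and Vars (44.6 ± 0.770) came next and overlapped each other. The lowest cytosolic mean was that of Wars at 12.4 ± 0.631, above the mean of every mitochondrial gene. The highest of those were Iars2 at 11.0 ± 0.208 and Lars2 at 10.3 ± 2.00. Libraries of Wars and Lars2 overlapped, with Lars2 at 12.6 in control replicate 3 and Wars at 11.6 in control replicate 2. Nars2 (0.706 ± 0.118) and Mars2 (0.854 ± 0.0598) were lowest of all per kilobase. The order rests on a length that counts all annotated exons, and which transcripts were expressed was not measured. Mars2, with 11294 bases, was at 9.64 ± 0.676 CPM before division, above Pars2 at 5.68 ± 1.04 CPM. Eprs, with 18102 bases, was at 289 ± 5.71 CPM before division and at rank 17 per kilobase. Neighbours in the control order were separate in 20 of 36 cases. The deposited length equals the exon length in GENCODE M21 for all members but Hars (1987 against 2447 bases), Lars (3856 against 5368) and Nars (2632 against 4355), so the rank of Nars rests on the length used. With the GENCODE lengths, an alternative chosen after the data were seen, Nars was at 54.0 ± 1.03 CPM per kilobase in control cells and at 56.3 ± 0.366 in induced cells, below Gars and Sars in both groups and above all other members. Hars was then at 32.9 and Lars at 19.3 CPM per kilobase in control cells, and the highest 6 genes were the same. Fold changes of a gene and shifts of a pair ratio do not depend on the length, except for phenylalanine. There the lengths of Farsa and Farsb weight the mean of the 2 subunits.

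The median control level was 27.7 CPM per kilobase over the cytosolic genes and 3.01 over the mitochondrial genes, and the induced medians were 24.1 and 2.84. In induced cells Nars, Gars and Sars were again the 3 highest by the deposited lengths, at 93.2 ± 0.605, 79.1 ± 1.80 and 70.6 ± 3.24 CPM per kilobase. Aars moved from rank 9 to 4 (37.7 ± 1.74) and Kars from rank 4 to 10 (25.2 ± 1.22), or to 9 with the GENCODE lengths. The induced mean of Lars2 (13.3 ± 3.76) lay above those of Wars (12.6 ± 0.140) and Farsa (10.9 ± 1.11). Their libraries overlapped, since Lars2 in induced replicate 1 (9.39) lay below every induced library of Wars and Farsa. Lars2 is the gene with the widest spread.

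**Figure D4:**
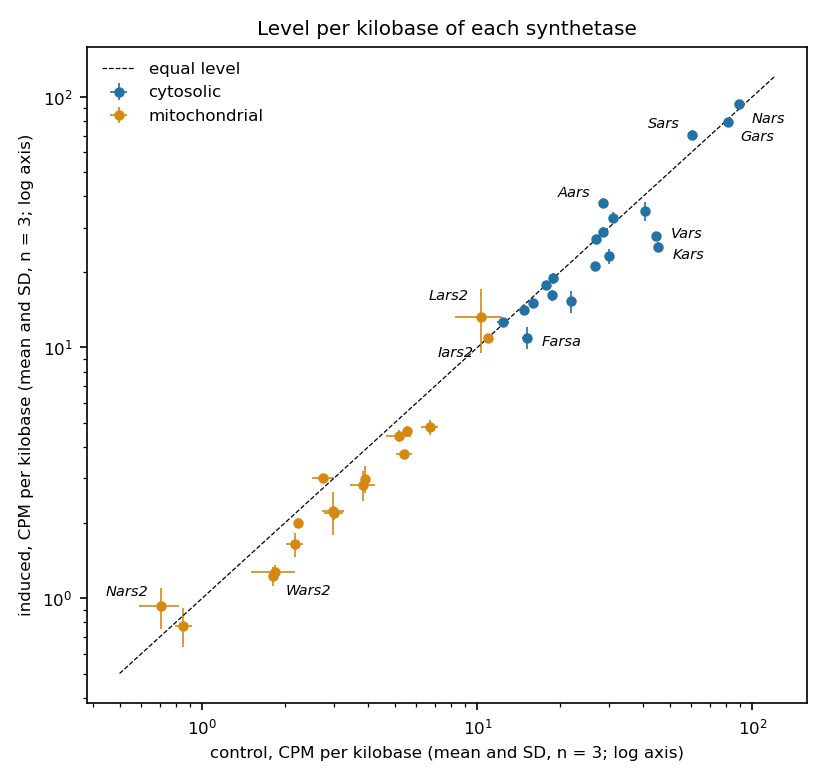
Level of each synthetase in control against induced cells, in CPM per kilobase of deposited gene length on log axes, mean and SD over 3 libraries per group, with cytosolic and mitochondrial enzymes in different colours. Kars (45.4 to 25.2) and Vars (44.6 to 27.8) lie below the line of equal level, Aars (28.5 to 37.7) lies above it.

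Summed over genes, the cytosolic enzymes went from 669 ± 1.33 to 622 ± 6.44 CPM per kilobase, 0.930 times the control level, and the mitochondrial enzymes from 70.2 ± 2.86 to 62.8 ± 2.94, 0.895 times. The cytosolic sum was 668 to 670.1 in the control and 615 to 628 in the induced libraries, and the mitochondrial sum was 68.0 to 73.4 and 60.0 to 65.9. Neither sum per kilobase overlapped between groups. The ratio of the sums was 9.54 ± 0.398 in control and 9.91 ± 0.514 in induced cells and overlapped. Gars and Kars, which serve both compartments, enter the cytosolic sum only. In control cells Gars alone (81.6 CPM per kilobase) was above the whole mitochondrial sum. The ratio with these genes placed otherwise was not computed. Leaving out Lars2 moved this ratio. Without it the mitochondrial sum went from 59.9 ± 1.18 to 49.6 ± 0.909 CPM per kilobase, 0.827 times the control level, and the ratio from 11.2 ± 0.233 to 12.6 ± 0.153. In counts not divided by length the ratio was 6.95 ± 0.427 and 6.72 ± 0.611, the opposite direction. There the mitochondrial sum overlapped, at 430 to 478 CPM in the control and 395 to 468 CPM in the induced libraries. The cytosolic sum, at 3090 to 3099 CPM and 2862 to 2913 CPM, did not.

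Other genes of protein synthesis were read in the same fit, in which 32.2% of all genes tested fell and 32.6% rose. All 7 genes of the cytosolic elongation factor list fell, with a median log2 fold change of -0.65. The list includes Eef2k, a kinase that inhibits Eef2. Eef1a1, which delivers charged tRNA to the ribosome, fell from 11768 ± 129 CPM to 7505 ± 176 CPM (log2 fold change -0.65, adjusted p = 9.06e-12), Eef1b2, its exchange factor, had -0.91 and Eef2, the translocase, -0.77. Of 10 mitochondrial translation factors 6 fell and none rose, with a median of -0.27, among them Tufm (-0.57), which delivers charged tRNA in the mitochondrion, its exchange factor Tsfm (-0.41) and the initiation factor Mtif2 (-0.38). Of 77 mitochondrial ribosomal protein genes 31 fell (40.3%) and 7 rose (9.09%). The median of that list was -0.08 (-0.18 without induced replicate 3 and -0.027 without induced replicate 2). Its genes with the smallest p were Mrpl45 (-0.79), Mrpl3 (-0.56) and Mrpl38 (-0.44). Among 11 accessory genes of tRNA charging Prorsd1 (0.38) and Dtd2 (0.31), both of editing enzyme families, rose and Pstk (-0.31), a kinase of selenocysteine tRNA synthesis, fell, with a median of 0.02.

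Targets of ATF4 outside the synthetases were counted as well. Of 28 such genes 17 rose and 8 fell, with a median log2 fold change of 0.30. Nupr1, a stress-induced chromatin protein, rose from 61.1 ± 2.27 CPM to 252 ± 11.2 CPM (log2 fold change 2.04, adjusted p = 5.57e-16), Ddit3, the stress factor CHOP, from 19.0 ± 1.74 CPM to 85.5 ± 1.52 CPM (log2 fold change 2.17, adjusted p = 2.47e-15), and Chac1, which degrades glutathione, from 29.6 ± 1.82 CPM to 117 ± 4.99 CPM (log2 fold change 1.99, adjusted p = 3.33e-15). Others of the list went the opposite way, as Psat1, an enzyme of serine synthesis, fell from 135 ± 3.00 CPM to 43.2 ± 1.73 CPM (log2 fold change -1.65, adjusted p = 1.13e-14). Psph (log2 fold change 0.61) and Phgdh (0.13), of the same pathway, rose. The list also counts Atf4 itself, which rose from 303 ± 2.53 CPM to 510 ± 11.7 CPM (log2 fold change 0.75, adjusted p = 2.78e-11). Of 16 amino acid transporter genes 8 rose and 5 fell, with a median of 0.22. Slc3a2, the heavy chain of several transporters and a member of both lists, rose from 187 ± 5.80 CPM to 389 ± 2.15 CPM (log2 fold change 1.06, adjusted p = 4.04e-13). Slc6a6, the taurine transporter, had 0.64, and Slc43a1, which carries large neutral amino acids, had -1.78. Beside these lists 2 of 20 cytosolic and 1 of 17 mitochondrial synthetases rose. Over all genes tested 32.6% rose and 32.2% fell. Exons of Mars and Ddit3 share 68 bases on opposite strands, and Mars did not pass.

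**Figure D5:**
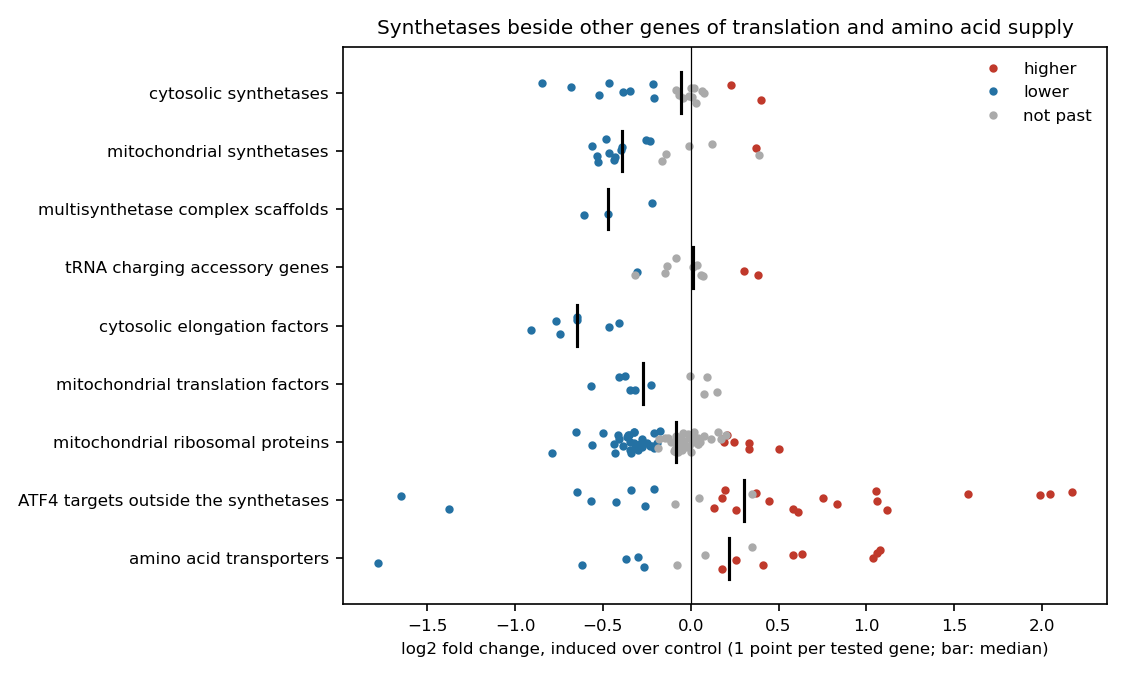
Log2 fold change, induced over control, of each tested gene in the synthetase lists and in 7 other lists, 1 point per gene coloured by call, with a bar at the list's median. The medians were -0.06 for cytosolic and -0.39 for mitochondrial synthetases, -0.65 for cytosolic elongation factors and 0.30 for ATF4 targets.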

How the data were processed

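RNA sequencing counts of 6 libraries were used. The authors deposited raw counts (whole reads for every gene, not normalized) and FPKM values, which divide them by depth and gene length. The submitters' processing notes name HISAT2 2.0.5, featureCounts 1.5.0-p3, DESeq2 1.16.1 and mm10, without their settings; whether reads were counted by strand is not given in the sources used here. Reads of overlapping or near-identical genes may therefore have been split or lost. Columns with fold changes and their raw and adjusted p-values, and the Gene Ontology tables, are the authors' own comparisons and were not used.

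Tests used edgeR 4.0.16 under R 4.3.3 on the counts (filterByExpr with a minimum count of 10 and total of 15, TMM factors, glmQLFit and glmQLFTest, two-sided, Benjamini-Hochberg over 14246 genes, threshold 0.05), and the code was tested on simulated data. The tested genes held 99.9% of the reads. Reported p-values are from this test unless another is named. Log2 fold changes use a prior count of 0.125. Where a library had 0 reads of a gene, 3 counts were taken as its limit (0.151 to 0.158 CPM), for counting error only. Pair ratios were tested by exact permutation over libraries.

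Library values were given for the 6 members of each compartment with the smallest p, for any with a 2-fold change (none), and for Wars, Farsa, Farsb, Hars, Hars2, Gars and Kars, and further values for members that did not pass. The values of 1 of these members and of 1 promoter sequence are not reported here. In other lists up to 3 genes with the smallest p were named. Psat1, Psph, Phgdh, Atf4 and Irf1, Sars, Iars, Lars2, Nars2 and the neighbouring genes that share exons were named after their values were seen. Members and lists were chosen with earlier results of these data known. Gene positions are those of the deposited table (mm10), which equal GENCODE M21 for 34 of 37 members, as do their lengths. Exon overlaps came from GENCODE M21, where 4 members share over 10% of their exon bases with another gene, and no member matched another annotated transcript over 200 bases at 95% identity. Alternatives were DESeq2 1.42.0, median-ratio or total scaling, no or a stricter filter, limma 3.58.1 on log2 FPKM with a pseudocount of 1 or 0.1, a replicate block and leaving out each library.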

Additional observations from a re-analysis of the deposited data

How the results depend on the processing

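Of 518 member values under the alternatives, 494 stayed on their side of the threshold, 17 lost significance and 7 gained it. None of the members past the threshold changed sign, and 29 values of 6 members that did not pass, all near 0 (Dars, Iars2, Lars, Rars, Wars and Yars), did. Most of the losses were of Lars2 and Yars2, and 1 was of Pars2; the gains were of Nars2 and Eprs. The count of genes past the threshold was 8471 to 9765 against 9225. Cytosolic calls numbered 10 or 11 and mitochondrial calls 10 to 13. The number of mitochondrial genes that rose was 0 with DESeq2, with library totals alone and with limma on log2 FPKM with either pseudocount, 2 with median-ratio factors and with no filter, and 0 to 2 when a library was left out. With library totals alone the median over all genes shifted by -0.04, the cytosolic median was -0.093 and that of the ATF4 targets 0.27. Limma with a pseudocount of 1 gave medians of -0.25 for mitochondrial synthetases, 0.22 for ATF4 targets, 0.13 for transporters, -1.71 for mitosis genes and 1.25 for interferon genes, and with 0.1 it gave 0.26, -1.97 and 2.58 for ATF4 targets, mitosis and interferon genes, since a pseudocount shrinks the changes of low values. Leaving out a library gave medians of -0.46 to -0.28 for mitochondrial synthetases, 0.26 to 0.33 for ATF4 targets, 3.55 to 3.78 for interferon genes, -0.53 to -0.39 for scaffolds (the smallest without induced replicate 2) and -0.18 to -0.027 for mitochondrial ribosomal proteins (the largest fall without induced replicate 3). The log2 difference in the cytosolic to mitochondrial ratio was 0.055, -0.051 in counts not divided by gene length, 0.17 without Lars2 and 0.045 with GENCODE exon lengths, both chosen after the data were seen. The cause of the shifts not explained by their construction was not tested.

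The labels number the libraries 1 to 3 in both groups. Deviations of same-numbered libraries correlated at -0.05, -0.04 and 0.04, and 2 of 6 libraries correlated best with their own number, so the numbers were not taken as pairs. With the replicate number as a block, 9063 genes passed, with 10 cytosolic and 13 mitochondrial members, of which 2 mitochondrial genes rose. Depth limits the least abundant members most, and the thinnest control library of a mitochondrial gene held 78 reads.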
